A study of Mus musculus with 9 samples.

Results

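The genes described here encode the synaptonemal complex and its HORMA domain partners. They are the 9 genes Sycp1, Sycp2, Sycp3, Syce1, Syce2, Syce3, Tex12, Hormad1 and Hormad2, chosen by name from the 46078 gene identifiers of the count data, with no measured value in the choice. All 9 were counted in each of the 9 libraries and passed the expression filter of each comparison. Sycp3 was the only member called by the main test, higher at 48 h than at 0 h and at 24 h, with a mean of 54.2 ± 4.28 CPM (SD, n = 3) at 48 h against 22.5 ± 9.62 at 0 h, where CPM are reads per 1000000 of a library after TMM scaling. The call against 0 h held in 9 of 9 other settings and in 3 of 6 fits that left out 1 library. The call against 24 h held in 5 of 9 and in 2 of 6. Syce2 was the most abundant per kilobase of full exon length in 8 of 9 libraries. With the bases that overlap another gene left out of its length, but no counts taken out, Sycp3 was above Syce2 at 48 h. That length was chosen after the overlap was seen. Sycp1 and Sycp2 varied more between replicates of 1 group than the group means differed.

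The synaptonemal complex is a protein zipper that joins paired homologous chromosomes during meiotic prophase. SYCP2 and SYCP3 build the lateral elements along each chromosome axis, SYCP1 forms the transverse filaments that span the gap, and SYCE1, SYCE2, SYCE3 and TEX12 make up the central element where filaments from both sides meet. HORMAD1 and HORMAD2 sit on axes that are not yet synapsed, where they help place DNA double-strand breaks and monitor pairing, and the ATPase TRIP13 removes them as synapsis proceeds. In the testis the complex assembles in spermatocytes, after spermatogonia have differentiated under retinoic acid and entered meiosis.

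All groups came from 1 mouse line, EGFP-SSC, spermatogonial stem cells (SSCs) of WT genotype that carry green fluorescent protein, so the replicates are libraries of a single line. The 0 h group was the line in normal culture on fibroblast feeders treated with mitomycin C, in medium with GDNF, bFGF and EGF. For the 24 h and 48 h groups, SSCs were mixed with an equal number of somatic cells taken from testes of busulfan-exposed mice at 3 to 7 days after birth, in medium with 10% KSR, BMP-4 and BMP-7, retinoic acid, activin A, testosterone, FSH and BPE, and the EGFP-positive cells were sorted. Each time had 3 libraries labelled as biological replicates. The labels do not say whether these were separate cultures, and p-values then measure the spread between these libraries, which may be technical.

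Library totals ran from 16825251 to 22201892 counts. The 7 germ cell markers, among them Ddx4 and Dazl, all averaged at least 1 CPM in each group and summed to 1813 to 2742 CPM at 0 h, 2060 to 2279 at 24 h and 2001 to 2199 at 48 h. The 0 h replicates stood apart from each other along GC content: the median deviation of the 1124 genes with transcripts under 40% GC from their mean over the libraries was 0.50 in replicate 1, -0.14 in replicate 2 and -0.68 in replicate 3 on the log2 scale. At 48 h the same measure was 0.34 and 0.41 in replicates 1 and 3 and -0.10 in replicate 2, and at 24 h it lay between -0.26 and 0.04. Results that turn on 1 of these libraries are given with and without it. The summed stromal and myoid markers were higher in the 24 h and 48 h libraries, while the summed endothelial and macrophage markers were lower. Single genes of these lists also went the other way, as given below. The 6 stromal and fibroblast markers summed to 260.8 to 357 CPM at 0 h, 2096 to 2425 at 24 h and 2809 to 3104 at 48 h, and the 5 myoid markers to 9.48 to 11.4, 143 to 204 and 259 to 317 CPM. In bulk samples, fewer cells of a type and less RNA per cell cannot be told apart.

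The promoter sequences of members are shown first because the genes share short motifs there that the choice of members did not use. RefSeq windows of 250 bases before each start (GRCm38.p6) were found for all 9 members, in 12 windows. The E-box CACGTG, a palindrome bound by MAX with partners such as MGA, stood in a window of 5 members (Sycp1, Sycp3, Syce2, Tex12 and Hormad1), and in 6.86% of all 27025 genes of the table. The E2F core GCGGGA, read on both strands, stood in 4 members (Sycp3, Syce2, Tex12 and Hormad1) and in 18.8% of genes. The letters CCTCAG, the core of a motif known from STRA8-bound promoters, stood in 4 members (Syce2, Tex12, Hormad1 and Hormad2) and in 24.8% of genes, also on both strands. By single windows rather than genes, the shares were 6.02%, 16.9% and 22.3% of 32851. In the window of the second start of Syce2, the matches to CCTCAG and GCGGGA share a base. The window of Sycp2 and those of Syce1 and Syce3 held none of the 3 motifs, which says only that these letters are not there.

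The windows of 4 members are printed 5′ to 3′ on the strand of the gene, with motif matches in capitals: Sycp3, the member called between times, and Hormad1, which has the same E-box and E2F letters and was not called, then Sycp1 and Sycp2, whose levels moved together over the libraries. In Sycp3 (chr10:88459337-88459586, plus strand) the E-boxes begin 64 and 43 bases before the start and the E2F core 147 bases before it. In Hormad1 (chr3:95559427-95559676, plus strand) the E-boxes begin 57 and 20 bases before the start, the E2F core 95 bases before it and the reverse complement of CCTCAG 76 bases before it. In Sycp1 (chr3:102936101-102936350, minus strand) the single E-box begins 94 bases before the start, and Sycp2 (chr2:178407659-178407908, minus strand) has no capitals.
Sycp3: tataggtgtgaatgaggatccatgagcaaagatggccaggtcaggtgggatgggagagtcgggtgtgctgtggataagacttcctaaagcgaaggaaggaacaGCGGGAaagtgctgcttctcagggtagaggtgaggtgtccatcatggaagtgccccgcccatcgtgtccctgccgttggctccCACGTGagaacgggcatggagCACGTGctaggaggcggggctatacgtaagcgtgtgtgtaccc
Hormad1: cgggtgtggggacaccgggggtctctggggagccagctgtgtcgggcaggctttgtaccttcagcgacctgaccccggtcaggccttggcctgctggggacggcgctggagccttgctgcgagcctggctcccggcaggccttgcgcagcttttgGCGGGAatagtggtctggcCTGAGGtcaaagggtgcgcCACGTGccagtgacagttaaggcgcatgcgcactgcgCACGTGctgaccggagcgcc
Sycp1: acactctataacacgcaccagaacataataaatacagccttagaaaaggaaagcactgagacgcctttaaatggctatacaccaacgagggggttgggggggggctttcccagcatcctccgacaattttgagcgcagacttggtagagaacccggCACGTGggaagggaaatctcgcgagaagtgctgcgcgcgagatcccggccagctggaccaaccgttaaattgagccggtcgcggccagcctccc
Sycp2: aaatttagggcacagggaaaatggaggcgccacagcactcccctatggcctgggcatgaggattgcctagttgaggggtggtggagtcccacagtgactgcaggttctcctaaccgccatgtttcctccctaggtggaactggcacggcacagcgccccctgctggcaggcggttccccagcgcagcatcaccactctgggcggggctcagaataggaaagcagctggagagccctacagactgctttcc

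The comparisons asked whether these genes changed as the SSCs were led to differentiate. Counts were tested with edgeR's quasi-likelihood test on the 6 libraries of each comparison, with p-values adjusted after Benjamini and Hochberg over all genes tested, and a gene was called at an adjusted p up to 0.05. At 24 h against 0 h, edgeR called 0 of 9 members, where 25.5% of the 17592 genes tested were called, 11.4% of them higher and 14.2% lower. At an unadjusted p up to 0.05 there were 2, Sycp3 and Syce2, against 37.0% of all genes, and DESeq2 called 1, Sycp3, against 23.1%. In the comparison of 48 h with 0 h, 1 of 9 members was called, Sycp3, against 31.6% of 17755 genes in either direction, 13.0% higher and 18.5% lower. There 2 members had an unadjusted p up to 0.05 against 42.1% of genes, and DESeq2 called 1 against 27.5%. Between 24 h and 48 h, 1 of 9 was again called, Sycp3, against 21.3% of 17499 genes in either direction, 8.61% higher and 12.7% lower. There 3 members had an unadjusted p up to 0.05 against 36.4% of genes, and DESeq2 called 1 against 22.8%. The fit with offsets for GC and length called 2, 2 and 0 members in the 3 comparisons, against 36.0%, 42.8% and 20.8% of genes. The members' median log2 fold changes were -0.24, 0.05 and 0.25, beside medians of 0.0052, 0.017 and -0.0045 over all genes. In the main edgeR fit the share of members called was below that of all genes in each comparison, and no member was called lower. With 9 members these counts are too small to tell the shares apart, and the difference was not tested. The edgeR fits with no expression filter and without 48 h replicate 2, given below, had a higher share of members called at 48 h against 24 h. The 48 h comparisons share libraries with each other and with the 24 h comparison, so their counts are not independent.

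**Figure D1:**
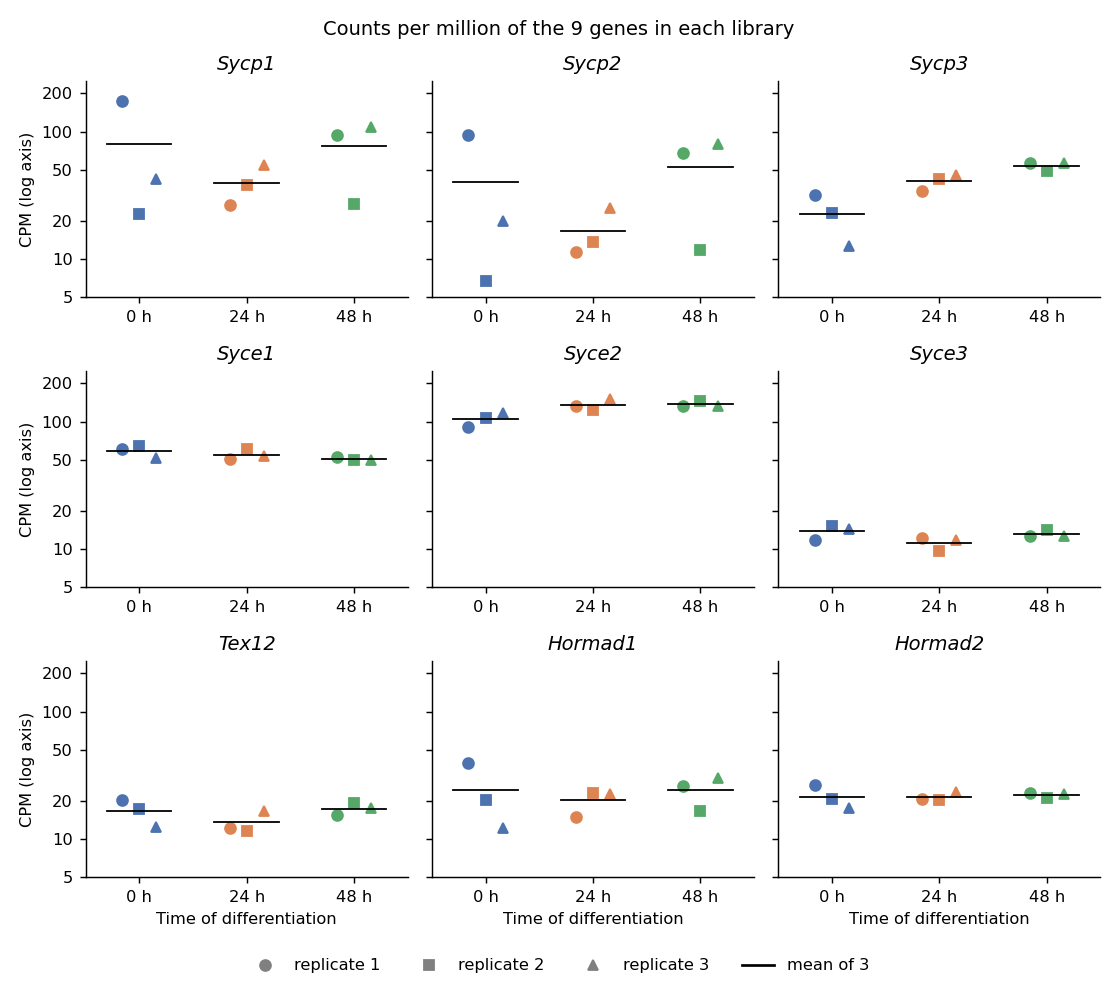
Level of each of the 9 genes in each library in CPM on a log axis, by time of differentiation. Symbols mark the replicate number and lines the mean of 3 libraries. Sycp3 lies between 12.7 and 31.9 CPM at 0 h and between 49.2 and 56.7 CPM at 48 h, while the 0 h libraries of Sycp2 run from 6.75 to 94.4 CPM.

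Among the axis genes, Sycp3, which encodes the core protein of the lateral element, had 31.9, 23.0 and 12.7 CPM in the 0 h replicates 1 to 3. It had 34.4, 42.9 and 45.3 CPM in the 24 h replicates and 56.7, 49.2 and 56.6 CPM in the 48 h replicates. Every 24 h library lay above every 0 h library, and every 48 h library above every library of both earlier times. At 24 h against 0 h the log2 fold change was 0.87 ± 0.31 (SE, 95% interval 0.15 to 1.59), with an adjusted p of 0.0785 from edgeR, and DESeq2 gave 0.87 with an adjusted p of 0.0231. It was called in 5 of 9 other settings, with edgeR or DESeq2 adjusted p from 0.00617 to 0.115. Of 6 fits leaving out 1 library, 2 called it, with edgeR adjusted p from 0.0106 to 0.211. The log2 fold change there ran from 0.61 without 0 h replicate 3 to 1.21 without 0 h replicate 1. At 48 h against 0 h Sycp3 rose 2.40-fold, by 1.27 ± 0.30 on the log2 scale (95% interval 0.55 to 1.98, edgeR adjusted p = 0.0175). Between 24 h and 48 h it rose 1.32-fold, by 0.40 ± 0.11 on the log2 scale (95% interval 0.15 to 0.64, edgeR adjusted p = 0.0315).

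These calls rest on few libraries. The 48 h against 0 h call held in 9 of 9 other settings of the fit, with adjusted p from 0.00021 to 0.0219, but was lost without 0 h replicate 2 (edgeR adjusted p = 0.0614), without 48 h replicate 1 (0.0625) or without 48 h replicate 3 (0.0591). The log2 fold changes in those 3 fits were 1.28, 1.24 and 1.24. The 48 h against 24 h call was lost in 4 of 9 other settings, and the fit with GC and length offsets gave a log2 fold change of 0.12 (edgeR adjusted p = 0.715). It was also lost in 4 of the 6 fits that left out 1 library, without 24 h replicate 1 (edgeR adjusted p = 0.0948), 24 h replicate 2 (0.0559), 48 h replicate 1 (0.0898) or 48 h replicate 3 (0.0942), where the log2 fold changes were 0.28, 0.43, 0.38 and 0.36. After the GC and length trends were taken out of log2 CPM, the 48 h libraries of Sycp3 differed 1.79-fold from highest to lowest, against 1.15-fold before, and the 0 h libraries 1.87-fold, against 2.50-fold before. The low-GC genes deviated in the same order as Sycp3 over the 0 h replicates, highest in replicate 1 and lowest in replicate 3, and their part in the result was not tested.

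Sycp3 lies at chr10:88459569-88473236 on the plus strand (GRCm38), and 660 of its 1264 exon bases, 52.2%, overlap exons of Chpt1 on the opposite strand. Chpt1, which encodes a choline phosphotransferase, averaged 17.2 ± 2.55 CPM in the 0 h libraries, 28.7 ± 2.63 in the 24 h libraries and 28.3 ± 3.45 in the 48 h libraries (SD, n = 3). The strand setting of the counting is not given in the sources used here, and without strand, reads from overlapping exons of both genes cannot be told apart. The part of such reads in the Sycp3 counts was not tested. The summed stromal markers were also higher at each later time, as given above, and their part in the result was not tested.

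Over the 9 libraries, the genes most like Sycp3 among 10363 with a mean of at least 10 CPM were Pus7, a pseudouridine synthase (Pearson r of log2 CPM 0.995), Taf7l, a germ cell paralogue of a TFIID subunit (0.992), and Jade3, a scaffold of histone acetyltransferase complexes (0.991). Taf7l averaged 28.9, 41.7 and 51.2 CPM at 0, 24 and 48 h, a smaller rise than that of Sycp3 (22.5, 40.9 and 54.2 CPM). These are descriptions over libraries that share a line, and the genes share the library composition as well.

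Sycp2 (chr2:178345293-178407685, minus strand, as for all positions in GRCm38) encodes the partner of SYCP3 in the lateral element. It had 94.4, 6.75 and 20.0 CPM in the 0 h replicates, 11.3, 13.5 and 25.4 CPM at 24 h, and 67.5, 11.8 and 79.4 CPM at 48 h. The replicates differed 14.0-fold at 0 h and 6.72-fold at 48 h, and the groups overlap in every comparison. The log2 fold changes were -1.27 ± 0.85 at 24 h against 0 h (edgeR adjusted p = 0.334), 0.38 ± 0.98 at 48 h against 0 h (0.808) and 1.65 ± 0.57 at 48 h against 24 h (0.0689). The last has a 95% interval of 0.36 to 2.93. It was called in 2 of 9 other settings, those with no expression filter (edgeR adjusted p = 3.08e-50) and with the replicate block plus GC and length offsets (log2 fold change 1.06, edgeR adjusted p = 0.0278). The median prior degrees of freedom, edgeR's weight on the spread shared by all genes, was infinite without the filter and 5.43 in the main fit. The p without the filter therefore does not measure the spread between the replicates of Sycp2. Without 48 h replicate 2 the change between 24 h and 48 h was 2.12 with an edgeR adjusted p of 0.000477. Without 48 h replicate 3 it was 1.225. Of the 6 fits leaving out 1 library, 1 called it, and the edgeR adjusted p reached 0.214. Without 0 h replicate 1 the 24 h change turned from -1.27 to 0.34.

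Hormad1 (chr3:95559677-95587671, plus strand), which recruits the break machinery to unsynapsed axes, had 39.7, 20.1 and 12.3 CPM at 0 h, 14.8, 22.9 and 22.7 CPM at 24 h, and 25.9, 16.7 and 30.0 CPM at 48 h. Its groups overlap, and the log2 fold changes of -0.24, 0.0060 and 0.25 (24 h against 0 h, 48 h against 0 h, 48 h against 24 h) had edgeR adjusted p of 0.722, 0.993 and 0.448. At 24 h against 0 h the 95% interval ran from -1.19 to 0.70. Without 0 h replicate 1 that change was 0.33 and not called. Of the Hormad1 transcript, 34.0% lies in 75-base windows shared with Gm15529, which had 1.24, 0.99 and 1.52 CPM on average at 0, 24 and 48 h.

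Hormad2 (chr11:4345814-4441105, minus strand), which marks unsynapsed axes for checkpoint kinases, differed little between the means of the groups. Its 0 h libraries differed 1.51-fold, and 1.13-fold after the GC and length trends were taken out. It had 26.5, 20.4 and 17.5 CPM at 0 h, 20.6, 20.3 and 23.4 CPM at 24 h, and 23.0, 20.95 and 22.6 CPM at 48 h. The groups overlap, and the log2 fold changes were 0.0099, 0.05 and 0.04 with edgeR adjusted p of 0.977, 0.865 and 0.793. The 95% interval at 24 h against 0 h was -0.40 to 0.42. Hormad1 and Hormad2 had a Pearson r of 0.888 over the 9 libraries, in log2 CPM.

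Sycp1 (chr3:102818499-102936100, minus strand), the only transverse filament gene, had 173.7, 22.7 and 42.2 CPM in the 0 h replicates, 26.7, 38.0 and 54.4 CPM at 24 h, and 94.7, 26.9 and 109 CPM at 48 h. 0 h replicate 1 was 7.66-fold above 0 h replicate 2, and 48 h replicate 2 lay as low as the lowest 24 h library. The log2 fold changes were -0.999 ± 0.70, -0.06 ± 0.79 and 0.94 ± 0.44 for 24 h against 0 h, 48 h against 0 h and 48 h against 24 h, with edgeR adjusted p of 0.353, 0.966 and 0.151. Without 0 h replicate 1 the first was 0.30, and without 48 h replicate 2 the last was 1.35 with an edgeR adjusted p of 0.00193. Without 48 h replicate 3 the last was 0.60. Of the 6 fits leaving out 1 library, 1 called it, and the edgeR adjusted p reached 0.421.

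Sycp1 and Sycp2 moved together over the libraries, with a Pearson r of 0.983 in log2 CPM over 9 libraries. Both were highest in 0 h replicate 1 and in 48 h replicates 1 and 3, the 3 libraries in which low-GC genes were highest. 0 h replicate 3 held the lowest low-GC genes, yet both genes were higher there than in 0 h replicate 2. The biological coefficient of variation, edgeR's estimate of the spread between replicates beyond counting error, was 0.712 for Sycp2 and 0.583 for Sycp1. These are the 99.6th and 98.4th percentiles of 18262 genes, whose median is 0.17. After the GC and length trends were taken out, the 0 h libraries still differed 7.45-fold for Sycp2 and 3.75-fold for Sycp1. For Hormad1 the same range fell to 1.54-fold, from 3.22-fold.

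The transcripts of Sycp1 and Sycp2 are 3437 and 5717 bases long with 34.6% and 36.4% GC, against a median of 49.8% over all genes. Tex12 and Sycp3, with 34.3% GC in transcripts of 1003 and 1169 bases, had coefficients of 0.185 and 0.237, at the 56.1st and 71.6th percentiles. Hormad1, with 35.8% GC in 1511 bases, had 0.333, at the 86.8th. The part of GC content in these spreads was not tested. The genes most like Sycp1 and Sycp2 were looked up after their values were seen. They included Rif1 and Gm4631 for Sycp1 (r of 0.985 and 0.984) and Rex2, Zfp518a and Ccdc88a for Sycp2 (0.991, 0.989 and 0.987). The transcripts of these 5 genes are 3993 to 9376 bases long with 36.0% to 39.4% GC.

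**Figure D2:**
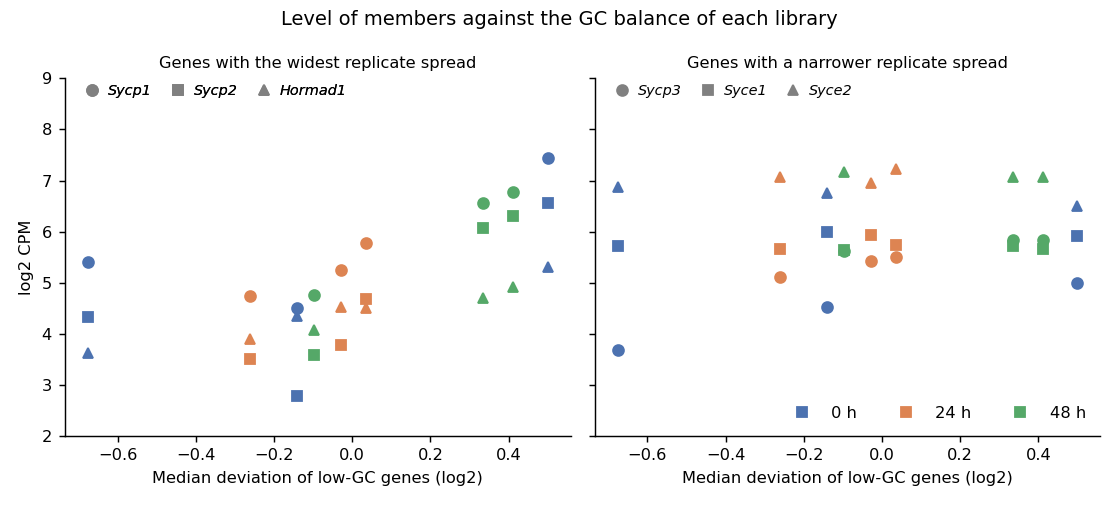
Level of 6 members in each library (log2 CPM) against the median deviation of low-GC genes in that library (log2, transcripts under 40% GC), coloured by time, each point 1 library. Sycp1, Sycp2 and Hormad1 are highest in the library at 0.50 and in those at 0.34 and 0.41, and the 0 h library at -0.68 stands above the 0 h library at -0.14 for Sycp1 and Sycp2. Syce1 and Syce2 differ little along the axis.

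Among the central element genes, Syce1, Syce2 and Syce3 had coefficients of variation of 0.119, 0.122 and 0.138, below the median of all genes, and Tex12 lay just above it. Syce2 (chr8:84872111-84888221, plus strand), whose protein assembles with TEX12 into the fibres of the central element, had 90.1, 108 and 118 CPM at 0 h, 134, 123 and 150.0 CPM at 24 h, and 133, 144 and 133 CPM at 48 h. Each 24 h and 48 h library lay above each 0 h library, and the fitted fold change was 1.30 in both comparisons. The log2 fold change was 0.38 ± 0.13 at 24 h against 0 h (edgeR adjusted p = 0.0755) and 0.38 ± 0.12 at 48 h against 0 h (0.0526), so neither was called. It was called in both comparisons in 5 of 9 other settings, where GC and length offsets gave edgeR adjusted p of 0.01 and 0.00541, and without 0 h replicate 3 the p were 0.0196 and 0.0141. That was the only call among the 6 fits leaving out 1 library in each comparison, where edgeR adjusted p reached 0.236 and 0.177. Without 0 h replicate 1 the log2 fold change was 0.28 in both comparisons. The log2 fold change between 24 h and 48 h was 0.0034 (edgeR adjusted p = 0.981). Members whose libraries did not overlap were Sycp3 and Syce2, both higher, in the comparisons with 0 h, against 21.2% and 22.9% of all genes not overlapping in that direction. Between 24 h and 48 h they were Sycp3 and Syce3, against 18.6%.

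Syce1 (chr7:140777229-140787852, minus strand), which links the ends of the transverse filaments to the central element, had 60.5, 63.9 and 52.2 CPM at 0 h, 50.8, 60.7 and 53.6 CPM at 24 h, and 52.9, 49.8 and 50.4 CPM at 48 h. It had the smallest replicate spread of the members, with a coefficient of 0.119. The log2 fold changes of -0.09, -0.21 and -0.12 had edgeR adjusted p of 0.682, 0.219 and 0.335. The 95% interval at 48 h against 0 h was -0.48 to 0.06, so a rise of the size of that of Sycp3 lies outside it.

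Syce3 (chr15:89390174-89410503, minus strand), whose small protein loads the other central element proteins onto SYCP1, had 11.8, 15.1 and 14.3 CPM at 0 h, 12.3, 9.58 and 11.8 CPM at 24 h, and 12.7, 14.0 and 12.6 CPM at 48 h. Its 48 h libraries lay just above those of 24 h, and the log2 fold changes of -0.28, -0.07 and 0.21 had edgeR adjusted p of 0.277, 0.775 and 0.239. Tex12 (chr9:50556819-50561325, minus strand), which encodes the partner of SYCE2, had 20.2, 17.3 and 12.4 CPM at 0 h, 12.2, 11.5 and 16.7 CPM at 24 h, and 15.5, 19.0 and 17.4 CPM at 48 h. Its groups overlap, and the log2 fold changes of -0.29, 0.06 and 0.35 had edgeR adjusted p of 0.408, 0.855 and 0.121. Without 24 h replicate 3, Tex12 was called at 48 h against 24 h (log2 fold change 0.55, edgeR adjusted p = 0.0235). This was the only 1 of 6 fits leaving out 1 library to call Tex12, and the edgeR adjusted p reached 0.308. After the GC and length trends were taken out, its 48 h libraries differed 2.54-fold, against 1.23-fold before.

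**Figure D3:**
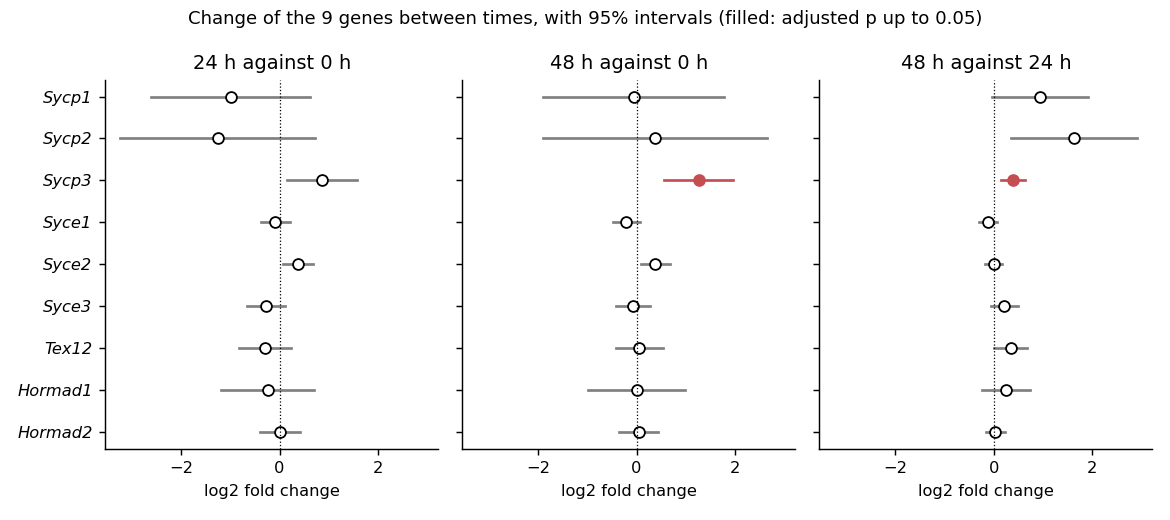
Log2 fold change of each gene between times (circle) with its 95% interval (line), from edgeR, positive where the later time is higher, and filled in red where the adjusted p is up to 0.05. Only Sycp3 is filled, at 48 h against 0 h (1.27) and against 24 h (0.40), and the widest intervals belong to Sycp2 and Sycp1.

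Levels can be set between genes only per length, as FPKM, here CPM per kilobase of exon. At 0 h the order was Syce2 (53.4 ± 7.09 FPKM, SD, n = 3), Syce1 (40.3 ± 4.12), Syce3 (24.8), Sycp1 (22.4 ± 23.1), Sycp3 (17.8), Tex12 (16.4), Hormad1 (13.9), Hormad2 (7.85) and Sycp2 (6.77 ± 7.92). Neighbours from Syce3 downward overlapped over the libraries. In 0 h replicate 1, Sycp1 came first with 48.9 FPKM, ahead of Syce2 with 45.8. At 24 h Syce2 led with 68.9 ± 6.88 FPKM, followed by Syce1 (37.7) and Sycp3 (32.3), whose libraries overlapped, and Sycp2 was lowest with 2.80 ± 1.27. At 48 h Syce2 (69.6 ± 3.25), Sycp3 (42.9 ± 3.39) and Syce1 (34.9 ± 1.12) stood in that order with no overlap. By its mean Sycp3 moved past Syce3, Sycp1 and Syce1 to stand next to Syce2, and Sycp2 was the lowest member in 6 of 9 libraries. With the bases that overlap Chpt1 left out of its length, Sycp3 had 37.3, 67.7 and 89.7 FPKM at 0, 24 and 48 h, which puts it above Syce2 at 48 h. That length was chosen after the overlap was seen, and no counts were taken out with it. Whether the counts hold reads from the overlapping bases is not known.

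**Figure D4:**
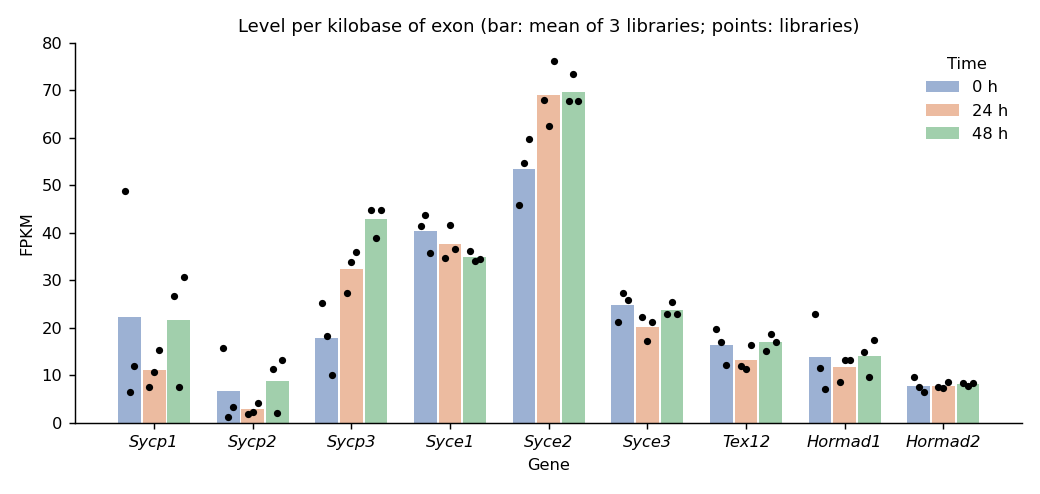
Mean level per kilobase of exon (FPKM, bars) of each gene at 0, 24 and 48 h, with each library as a point. With the full exon length of each gene, Syce2 is highest at each time (53.4, 68.9 and 69.6 FPKM). Sycp3 passes Syce1 between 24 h and 48 h, and 1 library of Sycp1 at 0 h reaches 48.9 FPKM.

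Other genes that act with the complex were read from lists chosen with earlier results of these data known, so their counts are descriptions, to be read beside the 25.5%, 31.6% and 21.3% of all genes called at 24 h against 0 h, 48 h against 0 h and 48 h against 24 h. Of 7 other axis and central element genes, 6 were tested against 0 h and 7 between 24 h and 48 h. Rec8, the meiotic kleisin of cohesin, had 21.2 to 24.3 CPM at 0 h, 105 to 118 CPM at 24 h and 61.1 to 65.6 CPM at 48 h. It rose by 2.32 ± 0.12 on the log2 scale at 24 h and then fell by 0.81 at 48 h, with edgeR adjusted p of 2.71e-05 and 0.000187. Stag3, another meiotic cohesin subunit, rose at 24 h against 0 h (log2 fold change 0.43, edgeR adjusted p = 0.0237) and fell by 0.27 at 48 h against 24 h (0.013). Rad21l, an alternative kleisin, was called higher at 48 h against 24 h (0.41, edgeR adjusted p = 0.0381). At 24 h against 0 h, 2 of 6 were called higher and 0 lower, at 48 h against 0 h 1 and 0, and at 48 h against 24 h 1 and 2 of 7. Six6os1, a central element gene, had 127.7, 45.3 and 26.3 CPM at 0 h and was not called. The list's median log2 fold changes were -0.54, -0.16 and 0.30.

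In TMM-scaled CPM, Rec8 and Sycp3 thus had different courses, since Rec8 was highest at 24 h and Sycp3 at 48 h in every library. After the GC and length trends were taken out, this did not hold for Sycp3. Its 48 h replicates 1 and 3 (log2 CPM of 5.25 and 5.29) then lay below every 24 h library (5.40 to 5.54). Among 6 tested HORMAD partners and break genes, none was called at 24 h against 0 h by edgeR, with 1 at an unadjusted p up to 0.05 and 1 called by DESeq2. Mei4, a partner of HORMAD1 in break formation, was the only one called later, at 48 h against 0 h (log2 fold change 0.94, edgeR adjusted p = 0.00562) and against 24 h (0.41, 0.0237), from 8.85 ± 1.45 to 16.9 ± 1.71 CPM between 0 h and 48 h. Trip13 and the HORMAD1 interactor Iho1 were not called at any time. The list's medians were 0.06, 0.09 and 0.13.

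Of 10 crossover genes, edgeR called 0 at 24 h against 0 h, with 1 at an unadjusted p up to 0.05 and 0 by DESeq2. Over both days it called 2 lower against 0 h, Cntd1 (log2 fold change -1.23, edgeR adjusted p = 0.0121), at 1.73 CPM at 48 h, and Msh5 (-0.53, 0.0362). It called 2 higher between 24 h and 48 h, among them Shoc1 (0.39, 0.0459). Their medians were -0.29, 0.05 and 0.28. Of 7 later spermatocyte genes, 4 were tested, and Ldhc, a lactate dehydrogenase of later germ cells, fell at 24 h and 48 h against 0 h (log2 fold change -1.13 and -1.20, edgeR adjusted p of 0.018 and 0.0108), from 4.92 to 2.13 CPM at 48 h. Hspa2, a chaperone of spermatocytes, fell by 0.35 at 48 h against 24 h (0.00859). Ccna1 and Piwil1 were tested and not called in any comparison. Every 24 h and 48 h library of Ccna1 lay above every 0 h library, with log2 fold changes of 0.53 and 0.50 (edgeR adjusted p of 0.154 and 0.117). For Piwil1 they were 0.10 and -0.07 (0.646 and 0.73). The list's medians were 0.08, -0.19 and -0.12.

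Of the 6 meiotic entry regulators, 4 were called higher at 24 h and at 48 h against 0 h, and none was called lower. Meioc had log2 fold changes of -1.01 and -0.28 against 0 h (edgeR adjusted p of 0.169 and 0.72), with 24.2 to 95.4 CPM in the 0 h libraries. Stra8, the retinoic acid target that starts the meiotic programme, had 1.94 to 3.12 CPM at 0 h, 866 to 975 CPM at 24 h and 464 to 511 CPM at 48 h. Against 0 h its log2 fold changes were 8.48 and 7.56 (edgeR adjusted p of 2.68e-06 and 4.17e-06). Meiosin, the partner of STRA8, rose from 2.04 ± 0.70 to 4.94 ± 0.75 and 8.25 ± 0.69 CPM, with edgeR adjusted p of 0.0194 and 0.00171 against 0 h and 0.0125 between 24 h and 48 h. Dmrt1, which restrains meiotic entry in spermatogonia, rose by 0.74 and 0.70 on the log2 scale against 0 h (0.0129 and 0.0135). Between 24 h and 48 h, Stra8 fell by 0.92, Meiosin rose by 0.73 and Ythdc2, an RNA helicase of meiotic entry, rose by 0.67 (edgeR adjusted p of 0.000125, 0.0125 and 0.0232). The list's medians were 0.85, 0.94 and 0.46. All 24 h libraries of Stra8 lay above all 0 h libraries in the comparison in which edgeR called no member.

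The 19 repressors of germline meiotic genes, among them subunits of the polycomb complex PRC1.6 that binds E-box and E2F letters, had 2 higher and 3 lower at 24 h against 0 h, 2 and 2 at 48 h against 0 h, and 3 and 4 at 48 h against 24 h. That is 5, 4 and 7 of 19, beside 25.5%, 31.6% and 21.3% of all genes. Their medians were -0.07, -0.08 and 0.04. Uhrf1, which maintains DNA methylation, fell by 0.79 and 1.19 on the log2 scale against 0 h (edgeR adjusted p of 0.00232 and 0.000502). Dnmt3b, a de novo methyltransferase, rose against 0 h by 0.94 on the first day (edgeR adjusted p = 0.000745) and by 0.36 over both days (0.0332), and fell by 0.58 between 24 h and 48 h (0.000295). Pcgf6, a core subunit of PRC1.6, had 50.9, 53.1 and 38.8 CPM at 0 h, 24.2, 26.4 and 31.2 CPM at 24 h, and 39.6, 39.9 and 40.7 CPM at 48 h. It fell by 0.79 at 24 h (edgeR adjusted p = 0.0104) and rose by 0.54 between 24 h and 48 h (0.00456). Tfdp1, the dimer partner of E2F proteins, fell by 0.44 at 48 h against 0 h (0.00976) and by 0.33 against 24 h (0.00443).

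**Figure D5:**
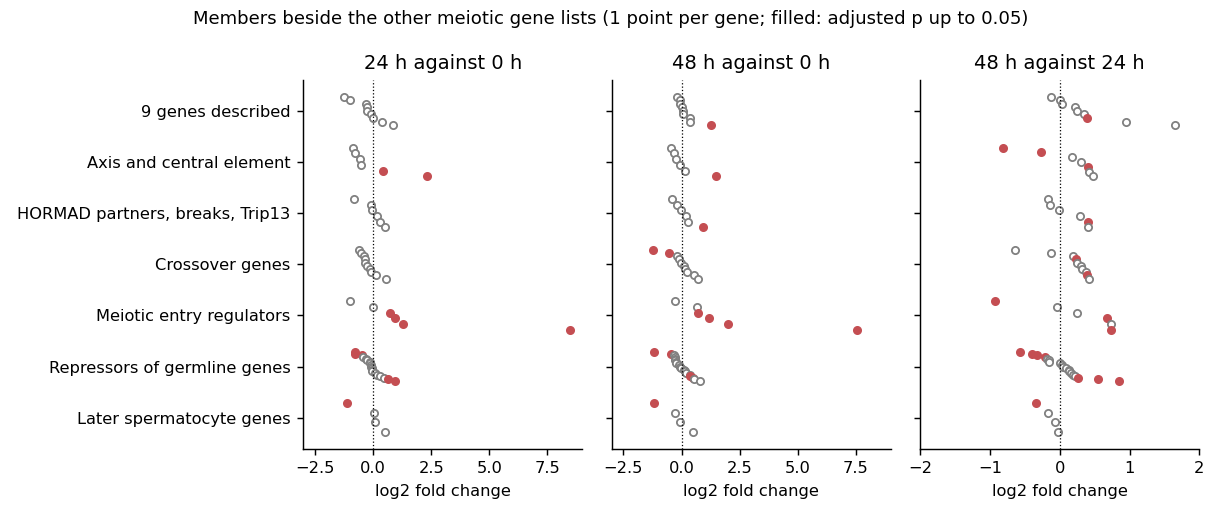
Log2 fold change of each tested gene, 1 point per gene, for the 9 members and 6 lists of related genes, filled in red where the edgeR adjusted p is up to 0.05. The horizontal scale of the right panel (48 h against 24 h) is narrower. Of the members only Sycp3 is filled, 4 of 6 meiotic entry regulators are filled in each comparison with 0 h, and Stra8 is the point at 8.48 and 7.56.

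Markers of other cell types were read in full beside these results. The 8 Sertoli markers summed to 23.8 to 25.1 CPM at 0 h, 57.7 to 94.7 at 24 h and 93.7 to 109 at 48 h, with Clu at 6.11, 33.3 and 56.3 CPM. Sox9, the most abundant of them at 0 h, had 11.7, 6.64 and 7.91 CPM, and Rhox5 had 2.23, 0.37 and 0.19 CPM, both lower at the later times. The 6 Leydig markers summed to 4.49 to 6.80, 24.6 to 38.6 and 25.3 to 32.6 CPM, with Star highest at 0 h (5.11, 8.07 and 8.83 CPM) and Cyp11a1 highest later (0.49, 20.9 and 14.7 CPM), and with Hsd3b1 and Insl3 at 0 counts in all 0 h libraries and Lhcgr at 0 in all 24 h libraries. The most abundant myoid gene was Tagln at 0 h (5.04, 57.0 and 90.6 CPM) and Acta2 at the later times (1.98, 98.0 and 167.8 CPM), and the most abundant stromal gene was Col1a1, with 157, 1112 and 1404 CPM. The 4 endothelial markers summed to 43.3 to 47.3, 14.4 to 18.7 and 12.2 to 12.8 CPM, with Kdr highest at 0 h (24.6, 4.74 and 2.42 CPM), Cdh5 at 24 h (4.10, 5.10 and 2.99 CPM) and Tek at 48 h (1.42, 3.50 and 4.11 CPM). The 4 macrophage markers, led by Cd68 (15.7, 5.79 and 5.46 CPM), summed to 15.95 to 17.2, 6.69 to 11.6 and 7.65 to 8.36 CPM. The other macrophage markers had higher means at the later times: Csf1r (0.29, 1.08 and 0.65 CPM), Adgre1 (0.11, 0.39 and 0.13) and Cd14 (0.61, 1.63 and 1.69). The part of the other cell types in any member's level was not tested.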

How the data were processed

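RNA was purified with Trizol, selected with poly-T beads and sequenced in 9 libraries of 1 line. Per the labels, the authors deposited raw counts, whole reads per Ensembl gene without normalization. The submitters' processing notes name fastp, HISAT2, featureCounts and GRCm38, with no versions. Gene models came from GENCODE M21 (GRCm38), which held 45229 of 46078 identifiers, and the other 849 took at most 0.121% of a library. Ankrd31 was not analysed here, and 2 genes that the naming rule or the likeness search returned are not reported here.

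The 6 libraries of each comparison were filtered (filterByExpr), scaled by TMM and tested two-sided with edgeR 4.0.16 in R 4.3.3 (quasi-likelihood, Benjamini-Hochberg over all genes tested, threshold 0.05). CPM used TMM over 9 libraries, log2 CPM a prior count of 2, and FPKM the exon union. Low-GC and high-GC genes have transcripts under 40% and over 60% GC. Chi-square per degree of freedom between replicate libraries was 7.78 to 90.9, above the value of 1 that sampling alone gives, so none were merged. The procedure was tested on simulated data.

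Named genes are the 9 members, up to 3 called genes of each list and comparison with the smallest adjusted p, the most abundant marker of each other cell type, and the 3 genes most like each called member. Six6os1, Trip13, Iho1, Meioc, Ccna1, Piwil1, further markers of other cell types, and the genes most like Sycp1 and Sycp2 were added after values were seen. The members and lists were chosen with earlier results of these data known.

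Alternatives were DESeq2 1.42.0, its size factors in edgeR, library size alone, 1 fit over all 9 libraries, no filter, a minimum of 10 counts per library, GC and length offsets (natural splines with 5 and 4 degrees of freedom), a replicate block, and leaving out each library. For FPKM they were the longest transcript, library size alone and the Sycp3 length without Chpt1 bases. Columns of authors' comparisons were not used.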

Additional observations from a re-analysis of the deposited data

How the results depend on the processing

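Of 405 log2 fold changes of members under other settings, 328 kept their direction and their side of the threshold, 40 turned in sign, 26 passed into the called range and 11 out of it. The cause of these changes was not tested, except where stated. edgeR called 0, 1 and 1 members for 24 h against 0 h, 48 h against 0 h and 48 h against 24 h. The first count was 1 with DESeq2, library size alone, no expression filter or at least 10 counts in every library, and 2 with all 9 libraries in 1 fit or with GC and length offsets. The second was 2 with library size alone, at least 10 counts, all 9 libraries in 1 fit or GC and length offsets. The third was 4 with no expression filter, beside 4543 of 32531 genes, and 0 with all 9 libraries in 1 fit or GC and length offsets. In the fit with no filter the median prior degrees of freedom at 48 h against 24 h was infinite. Its p-values there, also those of the lists below, do not measure each gene's own spread. Against 0 h, library size alone called 4802 of 17592 and 5765 of 17755 genes, and at least 10 counts 4088 of 15241 and 4920 of 15179. With all 9 libraries in 1 fit it was 5751 and 6945 of 18262, and with no filter 4270 of 31871 at 24 h. Leaving out 1 library gave 0 to 2, 0 to 2 and 0 to 3 members called, beside 2607 to 6023, 3471 to 7116 and 1857 to 4356 of all genes. The 3 members came without 48 h replicate 2, beside 4356 of 17952 genes.

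Values that turned in sign were never called. Library size alone gave 0.027 for Syce1 at 24 h against 0 h, 0.050 for Sycp1 and 0.044 for Syce3 at 48 h against 0 h, and -0.00069 for Syce2 at 48 h against 24 h. This scaling moved the median of all genes from 0.0052 to 0.12 and from 0.017 to 0.13 against 0 h, and the share of calls that were higher from 44.5% to 57.1% and from 41.2% to 52.8%. With GC and length offsets, Hormad2 was at -0.0091, -0.075 and -0.067 in the 3 comparisons, Hormad1 at -0.22 and -0.070 in the comparisons of 48 h, and Tex12 at -0.22 at 48 h against 0 h. The fit over all 9 libraries put Hormad2 at -0.00083 at 24 h. Leaving out 1 library at 24 h against 0 h gave -1.42 to 0.30 for Sycp1, -1.75 to 0.34 for Sycp2, -0.53 to 0.33 for Hormad1 and -0.088 to 0.19 for Hormad2. At 48 h against 0 h it gave -0.49 to 1.24 for Sycp1, -0.11 to 1.97 for Sycp2, -0.16 to 0.0062 for Syce3, -0.083 to 0.22 for Tex12, -0.28 to 0.58 for Hormad1 and -0.051 to 0.23 for Hormad2, and at 48 h against 24 h -0.063 to 0.10 for Syce2 and -0.00021 to 0.12 for Hormad2.

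The replicate numbers are shared between groups, but same-numbered libraries did not deviate together, with correlations of -0.26, 0.02 and -0.09 at 24 h against 0 h, 0.08, 0.20 and -0.28 at 48 h against 0 h, and 0.0011, -0.06 and 0.10 at 48 h against 24 h, so the numbers were not taken to pair the libraries. Only 48 h replicate 1, against the 0 h libraries, correlated best with its own number (0.08). All other later libraries correlated better with an earlier library of another number. With the replicate block, the genes called went from 4494, 5602 and 3732 to 3007, 4013 and 2497, and the members called to 0, 1 and 0. Sycp1 was at 0.24 at 48 h against 0 h under the block. The block with GC and length offsets called 2, 2 and 1 members, the last being Sycp2 in place of Sycp3, and put Hormad2 at -0.0090, -0.073 and -0.065, Hormad1 at -0.20 and -0.060 in the comparisons of 48 h and Tex12 at -0.29 at 48 h against 0 h.

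Counts over the lists also moved. In the order axis, HORMAD partner, crossover, entry, repressor and spermatocyte genes, they were 2, 0, 0, 4, 5 and 1 at 24 h against 0 h, 1, 1, 2, 4, 4 and 1 at 48 h against 0 h, and 3, 1, 2, 3, 7 and 1 at 48 h against 24 h. At 24 h the HORMAD partners had 1 call with DESeq2, library size alone, at least 10 counts, all 9 libraries or GC and length offsets, crossover genes had 1, 2 and 1 with all 9 libraries, with the offsets and with block and offsets, and the block gave 1 axis and 2 entry genes. At 48 h against 0 h the offsets gave 2 axis, 2 HORMAD partner and 7 repressor genes, the block with offsets 2 axis and 8 repressor genes, the block 1 crossover and 1 repressor gene, library size alone 1 crossover gene and all 9 libraries 2 spermatocyte genes. At 48 h against 24 h no filter gave 6 axis and 5 entry genes, all 9 libraries 1, 0, 0, 1, 3 and 0 in list order, the block 0 HORMAD partner, 0 crossover and 4 repressor genes, the offsets 2 HORMAD partners and 1 crossover gene, DESeq2 and library size alone 1 crossover gene each, and the block with offsets 0 crossover and 0 spermatocyte genes. Leaving out 1 library gave, in list order, 1 to 5, 0 to 1, 0 to 1, 1 to 5, 2 to 7 and 0 to 1 at 24 h against 0 h, 1 to 2, 1, 0 to 3, 2 to 5, 1 to 7 and 0 to 1 at 48 h against 0 h, and 1 to 6, 0 to 1, 0 to 4, 2 to 5, 4 to 8 and 0 to 1 at 48 h against 24 h. Over all genes, 1 fit of the 9 libraries gave 1043 calls between 24 h and 48 h, and leaving out 1 library gave as few as 2607, 3471 and 1857 calls in the 3 comparisons.

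With the longest transcript as length, FPKM at 0, 24 and 48 h were 62.4, 80.5 and 81.3 for Syce2, 28.6, 23.4 and 27.3 for Syce3 and 10.9, 10.9 and 11.3 for Hormad2, and 46.4 for Sycp3 at 48 h. Without the bases that overlap Chpt1, Sycp3 had 37.3, 67.7 and 89.7 FPKM. Total counts limit little here, since the lowest member count, that of Sycp2 in 0 h replicate 2, was 136 reads. The spread between 3 libraries is the limit for Sycp1 and Sycp2.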
